A study of Mus musculus with 2 samples.

Results

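The genes described here are 6 microRNA (miRNA) genes known for their activity in liver, gut and endocrine pancreas, measured in a skeletal muscle. They are Mir122, Mir192, Mir194-2, Mir215, Mir194-1 and Mir375, picked by name from the 2202 miRNA genes counted in the tables. Small RNA below 30 bases was sequenced from gastrocnemius, the large calf muscle, of 4-day-old female B6CASTF1/J mice, a cross of C57BL/6J and CAST/EiJ. No treatment or altered allele is given, and the labels form 1 group of 2 libraries. Each library is labelled with a female of its own number, but both carry the same donor entry. Whether that entry stands for the strain or for 1 animal is not stated. Of 8487769 reads in library 2, 4336759 were counted on the own strand of a miRNA gene, against 5569392 of 10426665 in library 1. Levels are in CPM, these counts scaled to the library's total of them.

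A miRNA gene is transcribed into a hairpin, from which enzymes cut mature strands of about the length sequenced here, and bases 2 to 8 of the mature strand, the seed, pair with target messenger RNAs. miR-122 is the dominant miRNA of hepatocytes, where it acts on cholesterol and lipid metabolism, and it is widely used as a blood marker of liver injury. The miR-192, miR-194 and miR-215 miRNAs are enriched in epithelium of gut, liver and kidney, and miR-375 is best known from pancreatic islets, where it restrains insulin secretion in mice.

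The mature strands below, from RefSeq on GRCm38.p6, are shown because they set which gene a read can be assigned to; the seed is in capitals, 5′ to 3′. Hairpin sequences in that table matched 5 of the 6 genes. Not printed here are miR-192-3p, miR-215-3p, miR-375-3p and the strands of miR-122. The miR-375 seed shown is thus that of the 5p strand only.
mmu-miR-192-5p: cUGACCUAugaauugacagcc
mmu-miR-215-5p: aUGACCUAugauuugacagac
mmu-miR-194-5p: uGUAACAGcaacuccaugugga
mmu-miR-194-2-3p: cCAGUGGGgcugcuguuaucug
mmu-miR-194-1-3p: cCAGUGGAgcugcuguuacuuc
mmu-miR-375-5p: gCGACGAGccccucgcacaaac
miR-192-5p and miR-215-5p carried the same seed, which no other mature strand among the 1679 names in the table had. Counted from the 5′ end, with the miR-192-5p base first, they differed by C1A, A12U and C20A, so a full-length read tells them apart by 3 bases in 21. miR-194-5p was the same in both Mir194 hairpins, and 2 counted hairpins contained it in full. The 3p strands of those hairpins, with the miR-194-1-3p base first, differed by A8G, C19U, U20C and C22G. The first of these lies in the seed, so the 3p strands have different seeds.

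The hairpins of the Mir194 pair are printed with the stretch they share in capitals, because reads inside it fit both genes.
Mir194-2: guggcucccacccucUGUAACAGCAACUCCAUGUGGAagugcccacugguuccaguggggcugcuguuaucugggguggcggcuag
Mir194-1: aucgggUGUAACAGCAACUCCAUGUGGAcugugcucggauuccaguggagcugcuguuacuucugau
The shared stretch was 22 bases long and was exactly miR-194-5p. The tables keep reads that match several places in a line of their own, outside every gene. In library 2 it took up 37.6% of all reads, and in library 1 36.9%. How many of them came from miR-194-5p was not tested, so both Mir194 levels are uncertain. The other members shared at most 13 bases with any other counted hairpin on either strand, Mir192 and Mir215 shared 10 bases with each other, and matches elsewhere in the genome were not searched. The tables give 1 count per hairpin, so 5p and 3p strands cannot be told apart in the values below.

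In mm10, the members lie at 4 places. Mir122 is on the plus strand of chromosome 18 (65248861 to 65248926), where it falls in an exon of AC157910.3, a long intergenic noncoding gene. Mir194-2 (6264643 to 6264728) and Mir192 (6264844 to 6264932) lie on chromosome 19, plus strand, with 115 bases between them, downstream of Atg2a and overlapping no other annotated gene. Mir194-1 (185313319 to 185313385) and Mir215 (185313581 to 185313692) lie on chromosome 1, plus strand, with 195 bases between them. Both of these are opposite to an intron of Iars2, and within the noncoding gene 2010103J01Rik they fall in an intron (Mir194-1) and an exon (Mir215). Mir375 is on the minus strand of chromosome 1 (74900658 to 74900721), between Cryba2 and Cfap65.

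The muscle label was checked against 8 muscle miRNA genes. Mir206, a miRNA of skeletal muscle lineage, was at 119323 CPM in library 2 and 129336 CPM in library 1, and 7 of the 8 genes were detected, meaning at 2 CPM or more in both libraries. Of all 2202 genes, 335 were detected, at a median of 123 CPM. Of the 6 members, 4 were detected, namely Mir122, Mir194-2, Mir375 and Mir192, and 1 of these lay above that median. The members together held 0.0867% of the counts in library 2 and 0.0214% in library 1. In a bulk sample, fewer cells of a type and less RNA per cell cannot be told apart, nor can RNA made in the muscle and RNA brought in from elsewhere.

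Mir122 was the highest member in both libraries and the one whose level differed most between them. It had 3573 counts in library 2 and 942 in library 1, which is 824 CPM (95% counting interval 797 to 851) and 169 CPM (159 to 180). The mean was 497 ± 463 CPM (SD, n = 2), with an SD of 93.2% of the mean, so the mean describes neither library. By level, Mir122 ranked 90th of 2202 genes in library 2 and 152nd in library 1. There were 145 Mir206 counts for each Mir122 count in library 2 and 765 in library 1.

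Mir194-2 and Mir375 were much lower and close to each other. Mir194-2 had 72 counts in library 2 and 81 in library 1, or 16.6 CPM (13.0 to 20.9) and 14.5 CPM (11.5 to 18.1), with a mean of 15.6 ± 1.46 CPM (SD, n = 2). Mir375 had 70 counts in library 2 and 79 in library 1, or 16.1 CPM (12.6 to 20.4) and 14.2 CPM (11.2 to 17.7), with a mean of 15.2 ± 1.38 CPM. For both genes the intervals of the libraries overlapped. Both ranked within the 247th to 253rd place in each library.

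Mir192, the neighbour of Mir194-2, had 40 counts in library 2 and 83 in library 1. Its level was 9.22 CPM (6.59 to 12.6) in library 2 and 14.9 CPM (11.9 to 18.5) in library 1, with a mean of 12.1 ± 4.02 CPM (SD, n = 2). In library 1 it was at nearly the level of Mir194-2, and in library 2 it was the lowest of the detected members.

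The chromosome 1 pair was at or near the limit of counting. Mir215, the seed partner of Mir192, had 5 counts in each library, or 1.15 CPM (0.374 to 2.69) in library 2 and 0.898 CPM (0.292 to 2.10) in library 1, below the detection level. Mir194-1 had 0 counts in both, and the limit that 3 counts set on such a gene was 0.692 CPM in library 2, against 0.539 CPM in library 1. On the opposite strand Mir194-1 had 1 count, in library 1. Intervals and limits describe counting error and nothing else, because they are worked out from the read counts alone. They make no allowance for several reads that stem from 1 molecule, which can occur where no molecular identifiers are used.

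**Figure D1:**
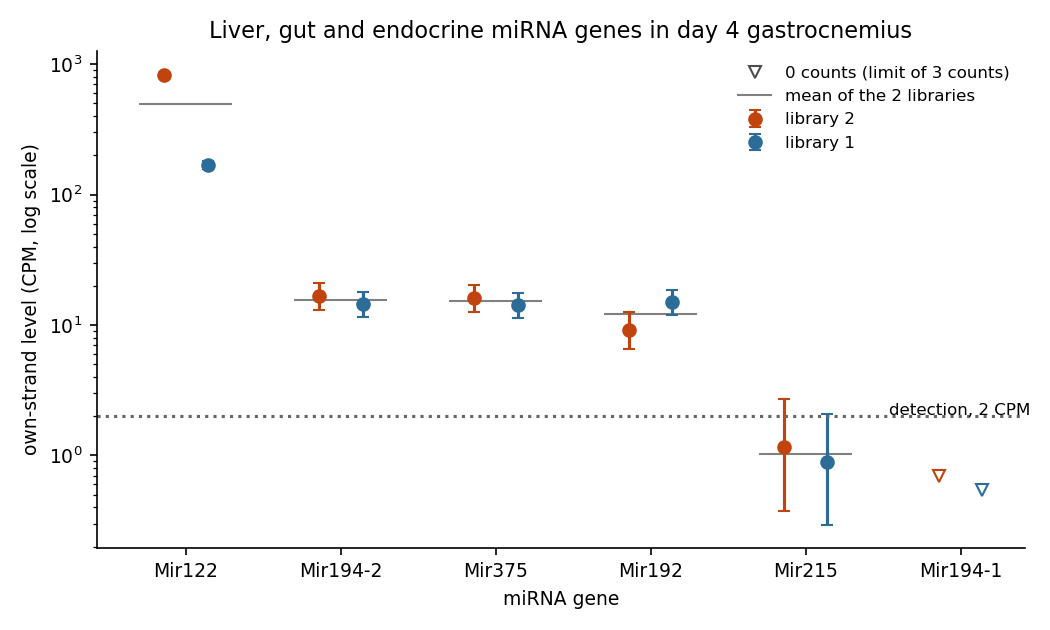
Own-strand level of each of the 6 genes (CPM, log scale) in library 2 and library 1, as points with 95% counting intervals; triangles mark the limit that 0 counts allow, grey lines the mean, and the dotted line 2 CPM. Mir122 stands far above the others, at 824 CPM in library 2 and 169 CPM in library 1, and Mir215 and Mir194-1 stand below the detection level.

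In order of mean CPM the members ran Mir122, Mir194-2, Mir375, Mir192, Mir215 and Mir194-1. The steps from Mir194-2 to Mir375 and from Mir375 to Mir192 were smaller than the SD of Mir192, so the order of these 3 is not settled by 2 libraries. Per 100 bases of hairpin, mean levels were 752 CPM for Mir122, 23.7 for Mir375, 18.1 for Mir194-2, 13.6 for Mir192 and 0.915 for Mir215. This puts Mir375 above Mir194-2 and leaves the other places unchanged. The RNA sequenced was below 30 bases, so counts need not grow with hairpin length, and this second order carries little weight.

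Within the chromosome 19 pair, the counts of the 2 neighbours were nearly equal in 1 library and unequal in the other. The ratio of Mir192 to Mir194-2 counts was 0.556 (95% counting interval 0.368 to 0.829) in library 2 and 1.02 (0.745 to 1.41) in library 1, with a mean of 0.790 ± 0.332 (SD, n = 2). The intervals overlap. Reads inside miR-194-5p fit both Mir194 hairpins and stay out of the Mir194-2 counts, in the line for several places. The ratio thus sets Mir192 against a part of the Mir194-2 reads. Each hairpin of the chromosome 19 pair had at least 40 counts in a library, whereas the chromosome 1 pair had 5 counts in all per library. A ratio of Mir215 to Mir194-1 has no value, because Mir194-1 is at 0. That 0 leaves out any miR-194-5p read, since such reads fit both Mir194 hairpins.

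**Figure D2:**
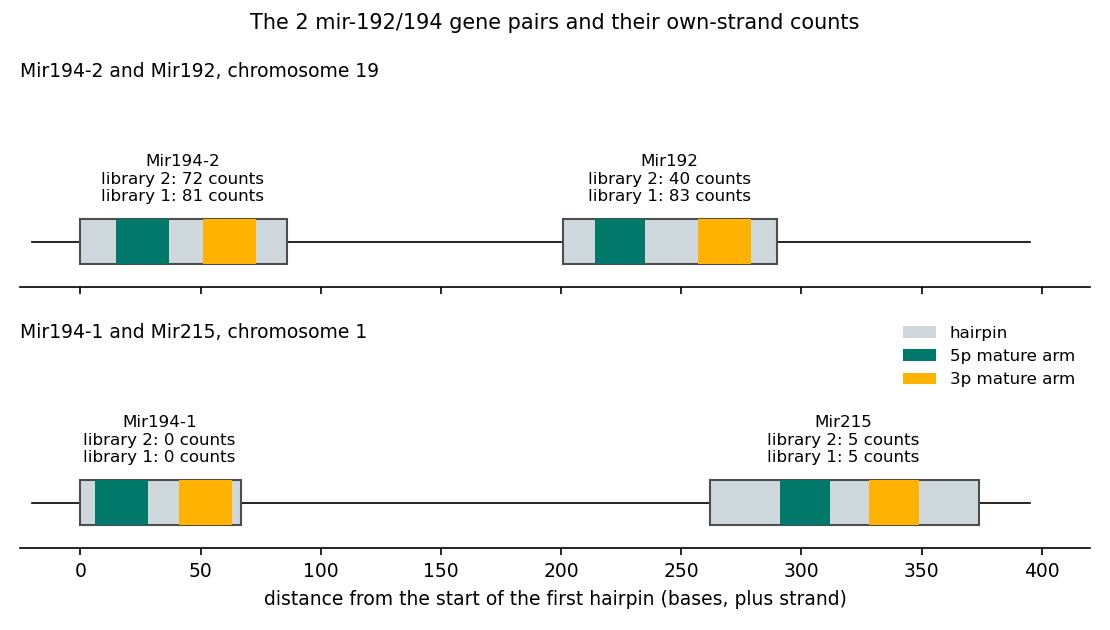
Both gene pairs drawn to scale, as the distance in bases from the start of the first hairpin on the plus strand, with hairpins in grey, 5p mature strands in green and 3p mature strands in yellow. Above each hairpin stand its own-strand counts, from 40 to 83 for the chromosome 19 pair and from 0 to 5 for the chromosome 1 pair.

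The libraries were then compared gene by gene by a binomial test of the 2 counts, exact and two-sided, with Benjamini-Hochberg adjustment over the 335 detected genes. The test compares these libraries and no conditions, and it covers counting error only. It called 186 of the 335 genes, 55.5%, of which 96 (28.7%) were higher and 90 (26.9%) lower in library 2. The balance turned with the scaling, to 81 higher and 105 lower with DESeq2 size factors, against 104 and 83 with library totals. Of the 4 detected members it called 2, Mir122 higher and Mir192 lower, which is close to that background share. The median log2 ratio of the 4 members, library 2 over library 1, was 0.17, and over all detected genes it was 0.03.

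Mir122 had a log2 ratio of 2.26 (95% counting interval 2.16 to 2.37), which is a level 4.80-fold higher in library 2. This was the fourth highest ratio among the detected genes, whose median ratio in absolute log2 value was 0.21. Of the 20 genes more than 2-fold apart, all higher in library 2, Mir122 had the highest mean level, followed by the nervous system gene Mir137 at 106 CPM. Because so many genes passed a test of counting error alone, the ratios were also set against the spread between libraries, a coefficient of variation of 22.0% estimated in edgeR from both libraries as 1 group. This spread comes from the same 2 libraries that are compared, with no replicate on either side, so the resulting p-values are no replicate check of a difference. With that spread, an exact negative binomial test called 6 genes (1.79%), all higher in library 2. Mir122 was among them, with an adjusted p of 0.000231 in edgeR's exact test. No gene was called lower by that test, and none had an unadjusted p under 0.05 in that direction, where 90 were called by the counting test. Within 2 libraries of 1 group, animal, dissection and library preparation cannot be told apart.

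Mir192 had a log2 ratio of -0.71 (-1.30 to -0.15), with an adjusted p of 0.0211 in the exact counting test. With the spread between libraries allowed for, its adjusted p was 1 in edgeR's exact test, and it was not called. Mir194-2 had a log2 ratio of 0.17 (-0.31 to 0.64) and Mir375 of 0.16 (-0.32 to 0.65), with adjusted p of 0.634 and 0.630 in the exact counting test. These intervals include 0 and also ratios as high as 0.64 and 0.65. Mir215, which was too low to be tested, had a log2 ratio of 0.34 with an interval from -1.78 to 2.46.

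**Figure D3:**
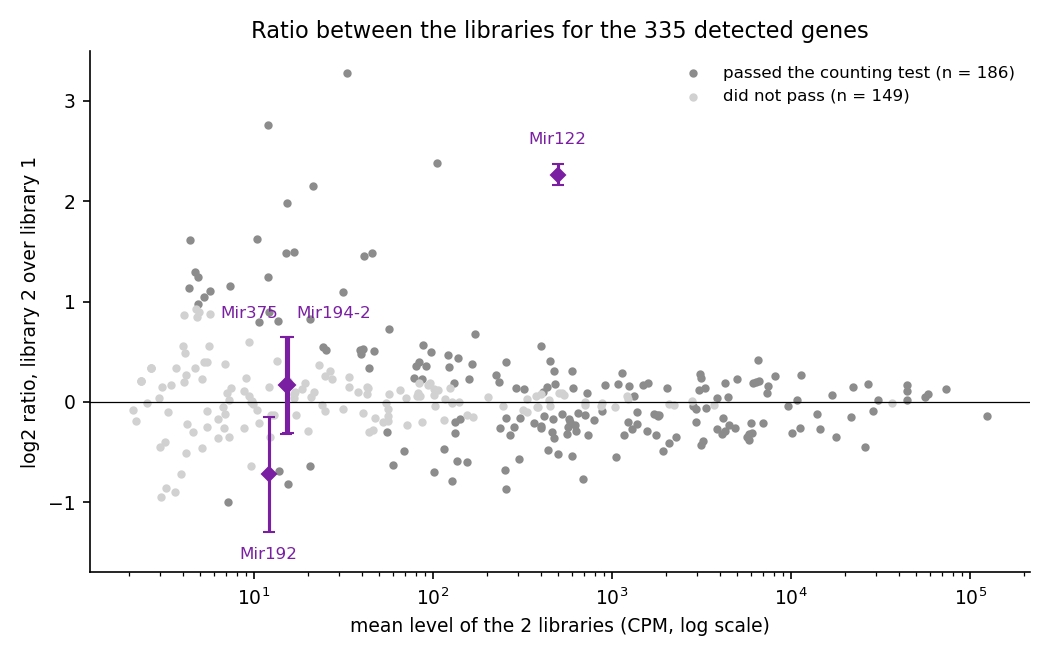
Log2 ratio of library 2 over library 1 against mean level (CPM, log scale) for the 335 detected genes, dark grey where the counting test was passed and light grey where not; diamonds with 95% counting intervals are the detected liver, gut and endocrine genes. Mir122 lies at 2.26 among genes of its level that mostly lie near 0, while Mir194-2, Mir375 and Mir192 lie within the cloud of genes of low level.

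The difference in the 6 genes as a group rested on Mir122. It made up 95.03% of their counts in library 2 (exact 95% interval 94.3 to 95.7) and 79.2% in library 1 (76.7 to 81.4). The other 5 genes together had 187 counts in library 2 and 248 in library 1, or 43.1 CPM (37.2 to 49.8) and 44.5 CPM (39.2 to 50.4). Their summed log2 ratio was -0.07 (-0.35 to 0.21). Mir122 thus had 19.1 counts for each count of the other 5 in library 2 and 3.80 in library 1. Of the other liver-expressed members, Mir192 was called lower in library 2 by the counting test alone, and Mir194-2 did not pass, with an interval that reached 0.64. The part of liver-derived RNA in the Mir122 difference was not tested.

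Among further miRNA genes known from liver and kidney, none was called higher in library 2. Of 4 such genes, 3 were detected, of which 2 were lower in library 2 and 1 did not pass, against 26.9% called lower and 55.5% called either way among all detected genes. Mir148a, abundant in liver and in many other tissues, was at 415 CPM in library 2 and 584 CPM in library 1, with a log2 ratio of -0.52 (-0.60 to -0.43). Mir101b was at 446 CPM in library 2 and 492 CPM in library 1, with a log2 ratio of -0.17 (-0.25 to -0.08), and it shares 20 bases with Mir101a, so its level is uncertain. Mir204, a kidney and eye gene, was at 101 CPM in library 2 and 103 CPM in library 1, and its ratio of -0.04 (-0.22 to 0.14) did not pass. Mir802, a miRNA of liver, pancreas and gut, had 1 count in library 2 and 0 in library 1. The median log2 ratio of the 3 detected genes was -0.17.

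Other pancreas genes were mostly near the level of Mir375 or below it. Of 9 listed genes, which include Mir802 again, 4 were detected, of which 1 was higher in library 2 and 3 did not pass, a share near the 28.7% called higher among all detected genes. Mir7b, known from neuroendocrine cells and pituitary, was at 20.98 CPM in library 2 and 3.05 CPM in library 1, a log2 ratio of 2.76 (2.00 to 3.60), and it was also among the 6 genes called with the spread allowed for. Mir7-1, whose mature strand is the abundant miR-7 of islets, was at 16.6 CPM in library 2 and 18.0 CPM in library 1, and did not pass at -0.14 (-0.59 to 0.32). Its level is uncertain, since it shares 24 bases with Mir7-2, whereas Mir7b shares 14 at most with another counted gene. Mir7-2 had 19 counts in library 2 and 4 in library 1, below the detection level in library 1. Mir184 was at 17.1 CPM in library 2 and 16.3 CPM in library 1, and did not pass at 0.04 (-0.42 to 0.50). Of the genes of the exocrine pancreas, Mir217 had 23 counts in each library, Mir216a had 1 in library 2 and 2 in library 1, and Mir216b had 2 in each. The median log2 ratio of the 4 detected genes was 0.19.

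Epithelial genes of the gut, which other epithelia express too, included 3 that were higher in library 2. Of 6 listed genes, 4 were detected, and 28.7% of all detected genes were called higher. Mir31, the highest of the list, was at 53.0 CPM in library 2 and 59.8 CPM in library 1. Its log2 ratio of -0.20 (-0.44 to 0.05) did not pass. Mir200c was at 29.1 CPM in library 2 and 19.6 CPM in library 1, with a log2 ratio of 0.55 (0.17 to 0.93). Mir200b was at 26.5 CPM in library 2 and 14.7 CPM in library 1, with a log2 ratio of 0.83 (0.41 to 1.25). Mir429, a neighbour of Mir200b that keeps epithelial identity with it, had the largest ratio of this list at 1.48 (0.95 to 2.03). With the spread allowed for, none of the 4 was called by edgeR's exact test, against 3 by the counting test. The median log2 ratio of the 4 was 0.69, and the 3 called by the counting test were higher in the same library as Mir122. The part of epithelial cells in the Mir122 difference was not tested.

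Blood-cell genes were read beside these values, since dissected muscle can hold blood. The 2 erythroid genes Mir451a and Mir144 had a sum of 119 CPM in library 2, against 96.8 CPM in library 1, a log2 ratio of 0.28 (0.10 to 0.46). Mir451a was called higher at 0.40 (0.19 to 0.60), and Mir144 did not pass at -0.09 (-0.47 to 0.28). The 3 leukocyte genes Mir223, Mir142 and Mir150 were all called lower in library 2 by the counting test, as were 26.9% of all detected genes. They had a sum of 326 CPM in library 2, against 564 CPM in library 1, a log2 ratio of -0.81 (-0.91 to -0.72). Mir451a was thus higher in the same library as Mir122, by a smaller ratio, and the leukocyte genes were lower there. Mir451a and Mir142 overlap a counted gene on the opposite strand and were at 0 counts when strand was ignored. The part of blood in the Mir122 difference was not tested.

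Among the 7 detected muscle genes, 3 were called lower in library 2 and 4 did not pass. Of all detected genes, 26.9% were called lower and 55.5% either way. Mir206 had a log2 ratio of -0.14, Mir499 of -0.33 and Mir208b of -0.60. The 8 muscle genes together were at 120607 CPM in library 2 and 130918 CPM in library 1, a log2 ratio of -0.14, against 2.26 for Mir122. Nearly all of this sum was Mir206, at 119323 CPM in library 2 and 129336 CPM in library 1. The summed ratio thus describes Mir206 and little else. The 4 genes that did not pass are Mir1a and Mir133 genes, whose levels are uncertain. A stretch of 28 bases is common to the Mir1a pair, 31 bases to the Mir133a pair, and 21 bases to Mir133b and Mir133a-2. Mir1a-2, with 77 own-strand counts in library 2 and 91 in library 1, was at 0 counts when strand was ignored. With the spread allowed for, edgeR's exact test called none of the blood-cell, muscle or further liver genes.

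**Figure D4:**
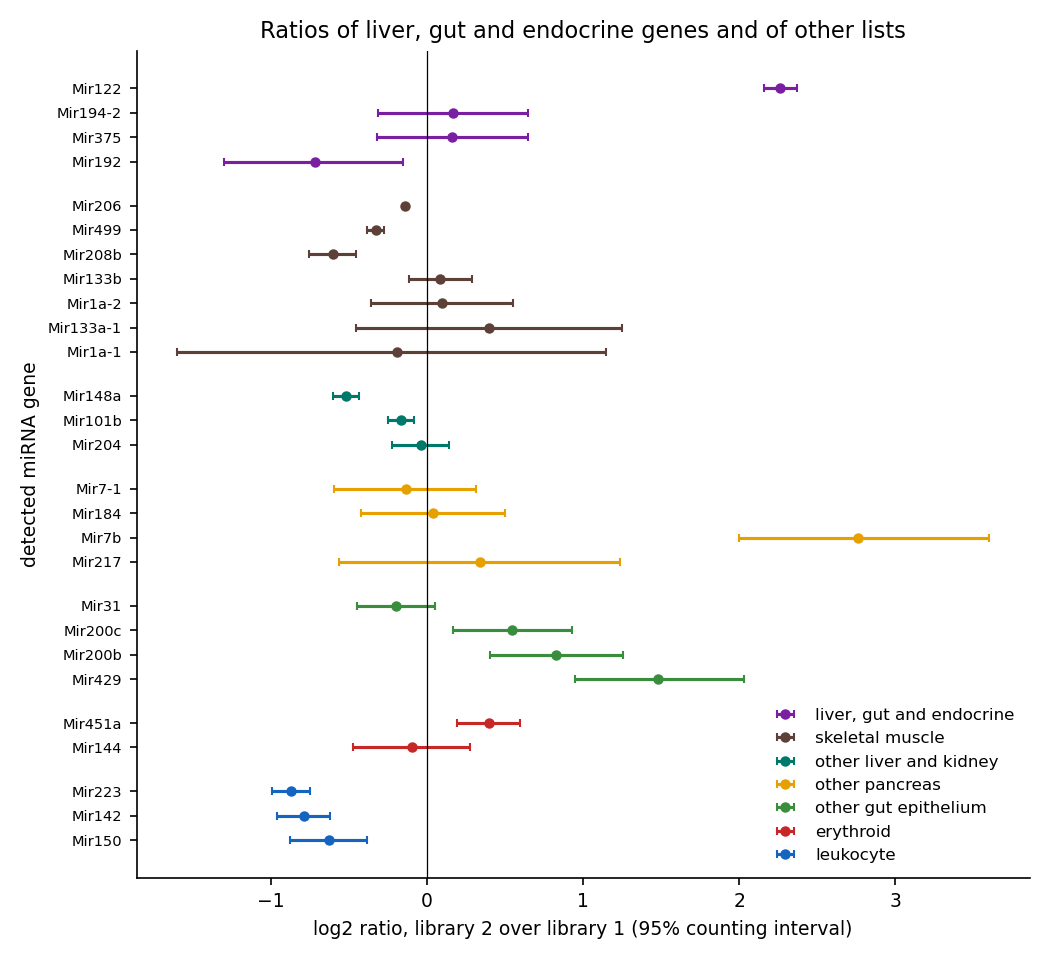
Log2 ratios of library 2 over library 1 with 95% counting intervals for the detected genes of each list, 1 gene per row, coloured by list. Mir122 at 2.26 and Mir7b at 2.76 stand apart on the right, and the leukocyte genes lie on the left, from -0.63 to -0.87.

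The genes nearest to Mir122 in log2 ratio, among the 254 genes at 10 CPM or more in both libraries, were Mir137, Mir449a and Mir138-1. Mir137 was at 178 CPM in library 2 and 33.6 CPM in library 1, with a log2 ratio of 2.38, which is 0.12 from that of Mir122. Mir449a, a gene of ciliated epithelium, was at 67.1 CPM in library 2 and 23.7 CPM in library 1, with a log2 ratio of 1.48. Mir138-1 was at 60.4 CPM in library 2 and 21.7 CPM in library 1, with a log2 ratio of 1.45, so both lay 0.78 or more from Mir122. Nearest to Mir192 were Mir16-2 at -0.70, Mir190b at -0.69 and Mir16-1 at -0.68. Mir138-1 (24 bases), Mir16-2 and Mir16-1 (23 bases) and Mir190b (20 bases) each share a stretch with another counted gene, which leaves these ratios uncertain. The likeness rests on 1 ratio between 2 libraries and describes no more than that.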

How the data were processed

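Small RNA libraries from the gastrocnemius of 2 separately numbered females were analysed. The labels give both the same donor entry, and whether it stands for the strain or for 1 animal is not stated; the spread between the libraries may then be technical in part. The authors deposited raw counts per gene for mm10 with GENCODE M21, per the deposited text; no aligner, counter or setting is named there (not given in the sources used here). The columns hold counts without regard to strand, on the own strand and on the opposite strand, of which the own-strand counts were used. The 4 lines that name no gene stayed out of library sizes; unmapped reads were 9.26% in library 2 and 8.03% in library 1, and reads in no feature 2.09% and 1.70%.

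All 2202 identifiers matched miRNA genes of GENCODE M21. Scaling used TMM from edgeR 4.0.16 under R 4.3.3; size factors of DESeq2 1.42.0 were an alternative. Level intervals are exact Poisson and ratio intervals exact binomial (Clopper-Pearson), both at 95%; the adjusted p threshold was 0.05. Other work used Python 3.11.15, scipy 1.17.1 and matplotlib 3.10.9. Tests were tried on simulated data first. The negative binomial test takes its spread from the same libraries it compares. The libraries are not copies of 1 library, since 186 genes differed beyond counting error.

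The members and lists were chosen with earlier results of these data known. The genes named are all 6 members, up to 3 highest of each list, and the 3 nearest to Mir122 and to Mir192 in ratio. Mir802, Mir217, Mir7-2, Mir216a, Mir216b, Mir429 and the Mir1a and Mir133 genes lie outside this rule and were chosen after their values were seen.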

Additional observations from a re-analysis of the deposited data

Results flagged for a closer look

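Outside the counts used for the levels, the line for reads that match several places held 3187607 reads in library 2 and 3842752 in library 1, far above 3 counts. No read in it can be assigned to a gene, so its share from miR-194-5p, the 22 bases common to Mir194-2 and Mir194-1, was not tested. On the opposite strand, Mir122 had 2 counts in each library and no member had more than 3.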

How the results depend on the processing

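Of 55 alternative values, 47 kept their direction and side of the threshold or moved by less than the SD. Part of this was fixed in advance and is no check. Leaving out a library always moves the mean by less than the SD, and a changed detection cut leaves each log2 ratio as it was. With all reads as the denominator, mean levels were 256 CPM for Mir122, within its SD, 6.34 for Mir192, 8.13 for Mir194-2, 0.534 for Mir215 and 7.91 for Mir375. With strand ignored they were 17.7 CPM for Mir194-2 and 17.3 for Mir375, since the total is then smaller. The negative binomial test called 6 genes in place of 186, and Mir192, at a log2 ratio of -0.71, was no longer called. The log2 ratio of Mir122 ranged from 2.23 to 2.28 and stayed called in every alternative run; that of Mir192 ranged from -0.75 to -0.69 and stayed called apart from the negative binomial test. Mir192 has no value at 10 CPM or more in both libraries, since it is below that in library 2. Leaving out library 1 or library 2 gives the other library's value with no test, for Mir122 824 or 169 CPM and for the ratio of Mir192 to Mir194-2 0.556 or 1.02. No paired analysis was possible because the series has 1 group. At this depth Mir215, with 5 counts in each library, could not be tested.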
